A study of Zea mays with 24 samples.

Results

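The carotenoid synthesis genes psy1 (also named y1, identifier Zm00001d036345), pds1 (also vp5, Zm00001d027936), lcyE (Zm00001d011210) and crtRB1 (also hyd3, Zm00001d048469) were followed across 6 dissected tissues of the maize seed. They are 4 of the 41768 features counted in every library, and all 4 were among the 26543 features with enough reads to be tested. The choice was by identifier and not by any measured value, though earlier results of these data were known. The deposited counts carry identifiers alone, so these names came with the choice of the genes. The tissues were embryo (Emb), apical scutellum (AS), endosperm adjacent to the scutellum (EAS), endosperm (End), scutellar aleurone layer (SAL) and pericarp (Per), with 4 libraries of each and 24 in all. All seeds were labelled wild type of the inbred line B73, except that the label of SAL replicate 1 names no line. The plants were untreated and grew under glass, with days of 24 °C, nights of 19 °C and 16 h of illumination, and 100 mg of each tissue was extracted. Not stated in the labels are the age of the seeds, the number of seeds in a sample, and any overlap of the dissected pieces, such as of AS with Emb or of EAS and SAL with End.

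Carotenoids are plastid pigments built from geranylgeranyl diphosphate. Phytoene synthase, the product of psy1, makes the colourless precursor phytoene in the first committed step, and phytoene desaturase, the product of pds1, begins its conversion towards red lycopene. Lycopene then passes to a branch point, where lycopene epsilon cyclase, the product of lcyE, directs it towards lutein. On the other branch, beta-carotene hydroxylase, the product of crtRB1, converts beta-carotene towards zeaxanthin. In maize, a functional psy1 gives the endosperm its yellow colour, and loss of pds1 function gives pale seeds that germinate on the ear, because abscisic acid is also made from carotenoids. Natural alleles of lcyE and crtRB1 are used to breed maize kernels with more provitamin A.

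Reads counted in genes ranged from 15.1 M in SAL replicate 2 to 61.1 M in Emb replicate 2, and every library other than SAL replicate 2 held at least 37.6 M. Levels are given as CPM, a gene's reads relative to the library size after TMM scaling, and summarised as mean ± SD over 4 libraries. At these depths 1 read was worth between 0.0150 CPM in Emb replicate 2 and 0.0542 CPM in SAL replicate 2. A difference between tissues was called where edgeR's quasi-likelihood test gave an adjusted p under 0.05, adjusted over all tested features, and the fitted fold was at least 2. Each SE was obtained by dividing the size of the log2 fold change by the root of the test's F, and is no fitted SE. CPM is not corrected for transcript length, so levels are compared between tissues within a gene, not between genes. In pieces of tissue, fewer expressing cells and less RNA per cell cannot be told apart.

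The first gene of the pathway, psy1, had its highest level in End. In End, psy1 stood at 25.9, 22.3, 22.5 and 21.3 CPM in replicates 1 to 4, a mean of 22.99 ± 2.00 (SD, n = 4). These 4 libraries were above each of the other 20 for this gene. Per held 3.12, 2.10, 2.36 and 2.07 CPM (mean 2.41 ± 0.491), and EAS held 3.55, 1.28, 2.54 and 2.11 CPM (mean 2.37 ± 0.948). Emb held 2.47, 2.25, 2.24 and 1.88 CPM (mean 2.21 ± 0.244). These 3 tissues overlapped one another. The lowest psy1 levels were in AS, with 0.795, 0.736, 0.703 and 0.625 CPM (mean 0.715 ± 0.0708), and in SAL, with 1.21, 0.596, 0.627 and 0.372 CPM (mean 0.701 ± 0.356). Behind the SAL values lay 61, 11, 39 and 22 reads. Of the 6 tissue means added together, End contributed 73.2%.

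**Figure D1:**
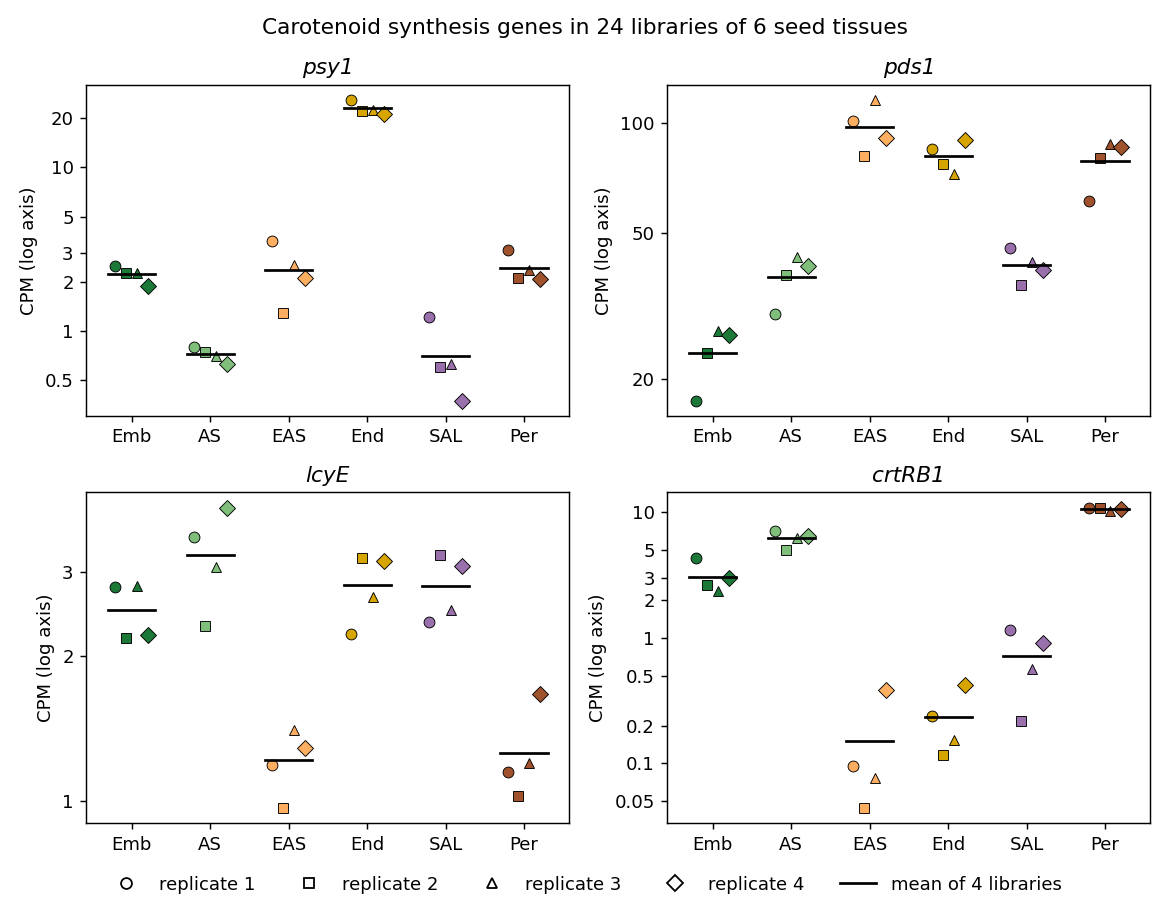
CPM of psy1, pds1, lcyE and crtRB1 (log axes) in each of the 24 libraries, by tissue; symbols mark the replicate number and bars the mean of 4 libraries. The 4 End libraries stand at 21.3 CPM or more for psy1, and the 4 Per libraries at 10.1 CPM or more for crtRB1, each above every other tissue's libraries.

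Between End and every other tissue, the psy1 difference was called at more than 8-fold. Its level in End was 9.54-fold that of the Per libraries (log2 difference 3.25, SE 0.25, edgeR adjusted p = 4.04e-11). Against EAS it was 9.72-fold (log2 fold change of EAS against End -3.28, SE 0.25, edgeR adjusted p = 2.13e-10). The fold over Emb was 10.4 (edgeR adjusted p = 2.1e-11), over AS 32.0 (edgeR adjusted p = 1.33e-13) and over SAL 32.5 (edgeR adjusted p = 4.56e-13). With library totals in place of TMM scaling, the log2 difference was 2.64 over Per and 4.34 over SAL, both still called. Below End, psy1 formed 2 tiers. Per, EAS and Emb did not pass the test against one another, with log2 differences between neighbours of 0.03 (Per over EAS, edgeR adjusted p = 0.926) and 0.10 (EAS over Emb, edgeR adjusted p = 0.73). Emb stood 3.09-fold above AS (log2 fold change 1.63, SE 0.27, edgeR adjusted p = 6.06e-05), with no overlap between the 2 sets of libraries. AS and SAL were not separated by the test (log2 fold change 0.02, SE 0.30, edgeR adjusted p = 0.957). For psy1, 11 of the 15 tissue pairs were called, where 43.4% of the tests of all features were. Of the 11, 5 were called at 8-fold or more, a rule for which no share of all features was computed.

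The desaturase gene pds1 followed another order, with its higher levels in EAS, End and Per. In EAS, pds1 stood at 101, 81.3, 116 and 91.0 CPM (mean 97.2 ± 14.6, n = 4). In End it stood at 84.8, 77.4, 72.6 and 90.0 CPM (mean 81.2 ± 7.68), and in Per at 61.3, 80.2, 87.4 and 86.2 CPM (mean 78.8 ± 12.1). These 3 tissues overlapped, and none of their differences reached 2-fold: the log2 fold change was 0.26 for EAS over End (SE 0.14, edgeR adjusted p = 0.107), 0.30 for EAS over Per (SE 0.14, edgeR adjusted p = 0.0463) and 0.04 for End over Per (SE 0.14, edgeR adjusted p = 0.775). With library totals alone the order turned, and Per exceeded both EAS (log2 fold change of EAS against Per -0.12, edgeR adjusted p = 0.396) and End (log2 fold change of End against Per -0.57, edgeR adjusted p = 0.000436). A second tier held SAL with 45.7, 36.2, 41.7 and 39.8 CPM (mean 40.8 ± 3.96) and AS with 30.1, 38.6, 43.0 and 40.7 CPM (mean 38.1 ± 5.63), which overlapped. The lowest pds1 levels were in Emb, with 17.5, 23.5, 27.0 and 26.4 CPM (mean 23.6 ± 4.37), below every library of every other tissue.

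For pds1, 7 of the 15 pairs were called, close to the share of 43.4% over the tests of all features. The largest was EAS over Emb, at 4.12-fold (log2 fold change of Emb against EAS -2.04, SE 0.14, edgeR adjusted p = 6.52e-12). End stood 3.44-fold above Emb (edgeR adjusted p = 8.22e-11), and Per stood 3.34-fold above it (edgeR adjusted p = 1.17e-10). Over AS, the folds were 2.55 in EAS (edgeR adjusted p = 6.33e-09), 2.13 in End (edgeR adjusted p = 2.04e-07) and 2.07 in Per (edgeR adjusted p = 3.61e-07). The last 2 calls rested on the fold threshold: without AS replicate 1 the log2 fold change of AS was -0.99 against End and -0.95 against Per, and without Per replicate 3 it was -0.99 against Per. The call of EAS over SAL, at 2.37-fold (edgeR adjusted p = 3.03e-08), was the remaining one. With library totals in place of TMM scaling, EAS over SAL (log2 fold change 0.76) and AS against End (-0.63) were under 2-fold. End over SAL, at 1.98-fold (edgeR adjusted p = 1.2e-06), and Per over SAL, at 1.92-fold (edgeR adjusted p = 2.84e-06), lay just under the fold threshold although their libraries did not overlap. Without SAL replicate 1 both passed 2-fold. The size of End over SAL depended on the scaling. From library totals alone its log2 fold change was 0.31 (edgeR adjusted p = 0.0357), with means of 60.8 CPM in End and 49.0 CPM in SAL. Per over SAL stayed under 2-fold in that fit, with a mean of 90.2 CPM in Per.

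The epsilon cyclase gene lcyE varied least among the 4 genes, and EAS and Per were its low tissues. In AS, lcyE stood at 3.55, 2.31, 3.07 and 4.08 CPM (mean 3.25 ± 0.750, n = 4). End held 2.23, 3.20, 2.66 and 3.16 CPM (mean 2.81 ± 0.459), SAL held 2.36, 3.25, 2.49 and 3.08 CPM (mean 2.79 ± 0.437), and Emb held 2.78, 2.19, 2.80 and 2.21 CPM (mean 2.50 ± 0.343). All 4 of these tissues overlapped, and none of the 6 pairs among them was called; the widest was AS over Emb (log2 fold change of Emb against AS -0.38, SE 0.18, edgeR adjusted p = 0.106). With library totals alone, End lay below SAL in lcyE (log2 fold change -0.65, edgeR adjusted p = 0.0033), under the fold threshold. Lower levels were found in Per, with 1.15, 1.02, 1.20 and 1.67 CPM (mean 1.26 ± 0.284), and in EAS, with 1.19, 0.968, 1.41 and 1.29 CPM (mean 1.22 ± 0.188). No library of EAS or Per reached the lowest library of the other tissues.

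In all, 7 of the 8 pairs that cross between those tiers were called for lcyE, at 2.05-fold to 2.67-fold. These were its only calls among the 15 pairs, close to the share of 43.4% over the tests of all features. EAS stood 2.67-fold below AS (log2 difference of AS from EAS 1.42, SE 0.19, edgeR adjusted p = 4.8e-07). It stood 2.32-fold below End (log2 difference -1.21, SE 0.20, edgeR adjusted p = 1.23e-05). Per stood 2.58-fold below AS (edgeR adjusted p = 7.38e-07) and 2.23-fold below End (edgeR adjusted p = 9.42e-06). The pair left out was Emb over Per at 1.98-fold (log2 fold change 0.99, SE 0.19, edgeR adjusted p = 5.72e-05). With the replicate number as a block, this pair was called as well (log2 fold change 1.00, edgeR adjusted p = 3.85e-05), as it was without Per replicate 4 (1.15). In turn, the call of Emb over EAS at 2.05-fold (log2 fold change 1.04, SE 0.19, edgeR adjusted p = 3.47e-05) was lost without EAS replicate 2, Emb replicate 1 or Emb replicate 3, where the log2 fold change was 0.94 to 0.99. When library totals were used without TMM scaling, Per was less than 2-fold below End (log2 fold change 0.55, edgeR adjusted p = 0.0128).

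The hydroxylase gene crtRB1 was highest in Per and lowest in EAS and End, where single libraries held 2 to 17 reads. In Per, crtRB1 stood at 10.8, 10.8, 10.1 and 10.6 CPM (mean 10.6 ± 0.347, n = 4). Its SD was 3.28% of the mean, the smallest such share for any of the 4 genes in any tissue. This spread lies within counting error, since the exact Poisson 95% interval of replicate 1 alone, from 470 reads, was 9.84 to 11.8 CPM. AS followed with 7.08, 4.95, 6.22 and 6.46 CPM (mean 6.18 ± 0.891) and Emb with 4.28, 2.61, 2.37 and 2.96 CPM (mean 3.05 ± 0.854). These 3 tissues did not overlap one another. In SAL, crtRB1 was at 1.15, 0.217, 0.563 and 0.914 CPM (mean 0.711 ± 0.408), from 58, 4, 35 and 54 reads. In End it was at 0.238, 0.116, 0.153 and 0.422 CPM (mean 0.232 ± 0.136), from 34 reads in all. In EAS it was at 0.0954, 0.0440, 0.0769 and 0.383 CPM (mean 0.150 ± 0.157), from 25 reads in all, of which 16 were in replicate 4. For the 2 reads of EAS replicate 2, the exact Poisson 95% interval was 0.00533 to 0.159 CPM, which covers counting error only. All EAS and End libraries lay below all Emb, AS and Per libraries for this gene.

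For crtRB1, 13 of the 15 pairs were called, where 43.4% of the tests of all features were. Of the 13, 8 were called at 8-fold or more, a rule for which no share of all features was computed. Per stood 69.8-fold above EAS (log2 fold change of EAS against Per -6.13, SE 0.42, edgeR adjusted p = 4.57e-12), 43.8-fold above End (edgeR adjusted p = 1.87e-11) and 13.8-fold above SAL (edgeR adjusted p = 1.53e-09). AS stood 40.7-fold above EAS (log2 fold change 5.35, with SE 0.42, edgeR adjusted p = 4.46e-11) and 25.6-fold above End (edgeR adjusted p = 2.54e-10). Emb stood 20.1-fold above EAS (edgeR adjusted p = 2.31e-09) and 12.6-fold above End (edgeR adjusted p = 2.03e-08). The folds over EAS were narrowed by its replicate 4. Without that library the log2 fold change was -7.16 for EAS against Per and -3.37 for EAS against SAL. It was 6.38 for AS against EAS and 5.36 for Emb against EAS, about 1 unit wider in each case. Per exceeded Emb 3.47-fold (edgeR adjusted p = 7.47e-06) and AS 1.71-fold, the latter under the fold threshold (log2 fold change of AS against Per -0.78, SE 0.29, edgeR adjusted p = 0.0161).

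Among the other tissues, some crtRB1 calls depended on single libraries or on the scaling. AS stood 2.03-fold above Emb (log2 fold change of Emb against AS -1.02, SE 0.29, edgeR adjusted p = 0.00859), with libraries that did not overlap. This call was lost without AS replicate 1, AS replicate 4, Emb replicate 2 or Emb replicate 3, where the log2 fold change was -0.97 to -0.92. It was also just under 2-fold with no low-count filter (-0.99), when only these tissues were fitted, with upper quartile scaling (-0.97) and with library totals alone (-0.93). SAL stood 3.18-fold above End (log2 fold change of End against SAL -1.67, SE 0.45, edgeR adjusted p = 0.00192) and 5.06-fold above EAS (edgeR adjusted p = 9.99e-05), although the low SAL replicate 2, with 4 reads, overlapped both. Without the 4 libraries whose genotype or date label departs from the rest, SAL over End was no longer called (log2 fold change -0.92, edgeR adjusted p = 0.113), and the log2 fold change of EAS against SAL was -1.40 (edgeR adjusted p = 0.0295). In that fit crtRB1 in SAL lay farther below AS (log2 difference 3.75) and Per (log2 fold change -4.53). It kept only SAL replicates 2 and 3, at 0.217 and 0.563 CPM. The SAL libraries left out were the higher ones, replicate 1 at 1.15 CPM and replicate 4 at 0.914 CPM. EAS and End did not pass the test against each other (log2 fold change -0.67, SE 0.58, edgeR adjusted p = 0.327). Without EAS replicate 4 that difference was called, with EAS lower (log2 fold change -1.71, edgeR adjusted p = 0.0217).

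**Figure D2:**
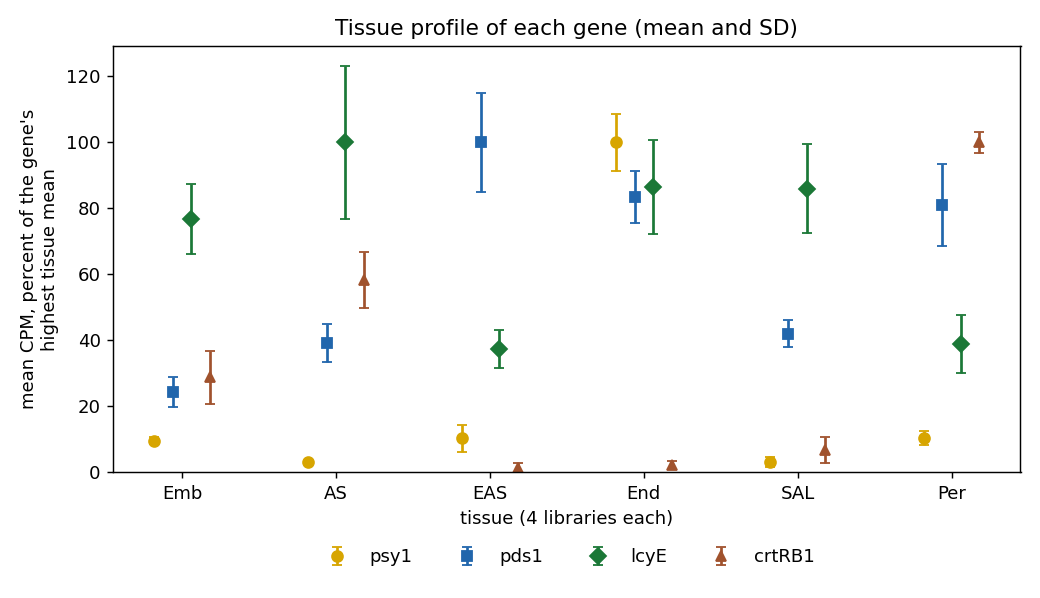
Mean CPM of each gene in each tissue, as a percentage of that gene's own highest tissue mean, with SD of 4 libraries. psy1 is at 10.5% of its maximum or less outside End, crtRB1 at 6.72% or less in EAS, End and SAL, and lcyE at 37.4% or more in every tissue.

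Set side by side, the highest tissue mean was that of End for psy1, EAS for pds1, AS for lcyE and Per for crtRB1. With library totals alone, the highest pds1 mean was in Per (90.2 CPM, against 82.9 CPM in EAS) and that of lcyE was shared by SAL and AS (both 3.36 CPM). The lead of End was called against every other tissue for psy1, whereas the leading tissue was not separated from the next by a call for the other genes. Between EAS and End, psy1 and lcyE were called lower in EAS, and pds1 and crtRB1 were not called. The log2 range between the highest and the lowest tissue mean, computed after adding 0.1 CPM, was 5.42 for crtRB1, 4.85 for psy1, 2.04 for pds1 and 1.35 for lcyE, beside a median of 2.07 over all tested features. By that range, crtRB1 exceeded 89.3% of tested features, psy1 85.7%, pds1 49.3% and lcyE 30.7%. Across the 24 libraries no pair of the 4 genes was closely correlated in log2 CPM. Pearson's r, which mostly reflects the 6 tissues, ran from -0.57 for pds1 with lcyE to 0.46 for psy1 with pds1.

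Counts of the 4 genes called in each pair of tissues are given here beside the share of all tested features called by the same rule, in either direction. Between Emb and AS, 2 of 4 were called, psy1 higher and crtRB1 lower in Emb, where 12.5% of all features were. Between EAS and End, 2 of 4 were called, psy1 and lcyE both lower in EAS, where 24.7% of features were. These were the pairs with the fewest calls overall. Between SAL and Per, 3 of 4 were called against 32.6% of features, with lcyE higher and psy1 and crtRB1 lower in SAL. End against SAL had 2 of 4 called against 41.1%, psy1 higher and crtRB1 lower in End. These shares are set by 4 genes and are a description.

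In the pairs that set EAS against AS or SAL, psy1 and pds1 differed in the opposite direction from lcyE and crtRB1. Between AS and EAS, 4 of 4 were called where 52.8% of features were: psy1 and pds1 were higher in EAS, and lcyE and crtRB1 higher in AS. The same division was seen between EAS and SAL, with 4 of 4 called against 43.5% of features. There psy1 and pds1 were higher in EAS, and lcyE and crtRB1 in SAL. Both pairs use the same EAS libraries, and between AS and SAL crtRB1 alone was called, so these are not separate observations. AS against End had 3 of 4 called against 50.2%, with psy1 and pds1 lower and crtRB1 higher in AS. Emb against End gave the same 3 genes in the same directions, against 50.1% of features. Emb against EAS also had 3 of 4 called, against 53.9%, with pds1 lower and lcyE and crtRB1 higher in Emb. Where about as many features are called as not, a count of 2 or 3 genes of 4 is near the background.

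Among the other pairs, End against Per had 3 of 4 called against 49.4% of features, psy1 and lcyE higher and crtRB1 lower in End. AS against Per also had 3 of 4 called, against 49.7%, lcyE higher and psy1 and pds1 lower in AS. Emb against SAL had 2 of 4 called against 44.2%, psy1 and crtRB1 both higher in Emb. Emb against Per had 2 of 4 called against 51.1%, pds1 and crtRB1 both lower in Emb. AS against SAL had crtRB1 alone called, higher in AS, against 44.5% of features. EAS against Per had crtRB1 alone called too, lower in EAS, against 50.3% of features. In that last pair the median size of the log2 fold change was 0.18 over the 4 genes and 1.05 over all features, and the fitted fold of psy1, pds1 or lcyE between EAS and Per was at most 1.23. Over the 60 gene-by-pair tests, 38 were called, where 43.4% of the tests of all features were. The libraries of the compared tissues did not overlap in 42 of the 60, a share close to the 71.1% of all features.

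**Figure D3:**
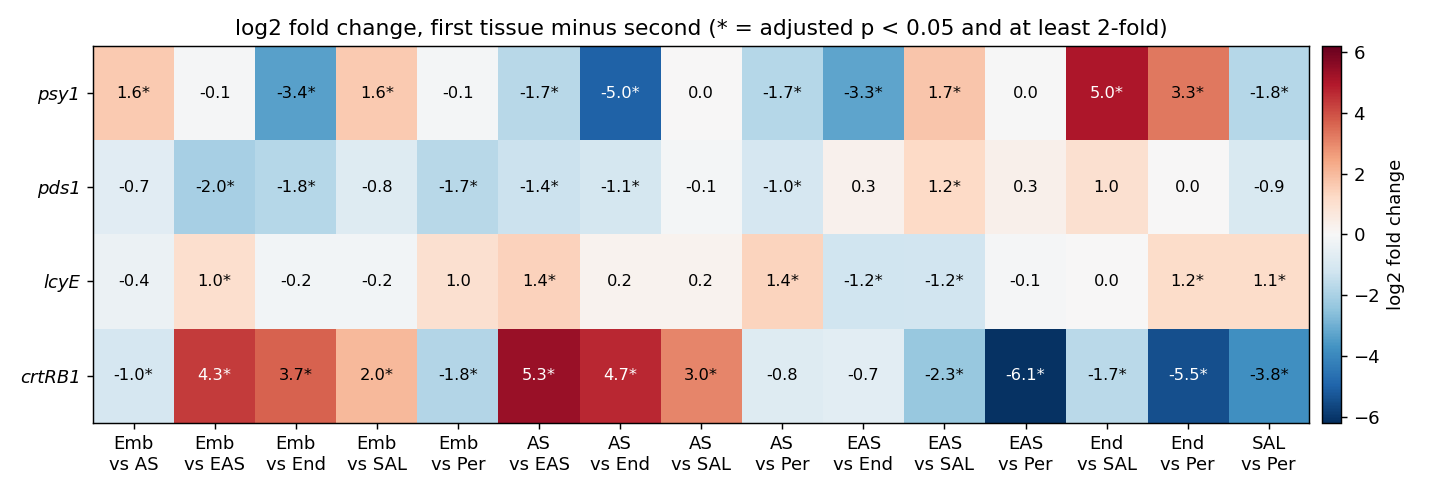
Fitted log2 fold change (first tissue minus second) of each gene in the 15 pairs of tissues; an asterisk marks an adjusted p under 0.05 with at least a 2-fold difference. The psy1 row is extreme in the pairs with End. The crtRB1 row is extreme in the pairs that set EAS or End against Emb, AS or Per, and in those that set SAL against AS or Per.

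Ratios of reads within a library do not depend on how libraries are scaled. They were used to ask whether psy1 and pds1, whose products act in succession, moved together, and likewise crtRB1 and lcyE. The products of crtRB1 and lcyE act on different substrates, so their ratio does not measure competition at the branch point. Both ratios were chosen with earlier results of these data known. The log2 ratio of psy1 to pds1 reads was -1.82 ± 0.179 in End (SD, n = 4), with libraries between -2.08 and -1.69. It was -3.40 ± 0.424 in Emb, -5.03 ± 0.498 in Per, -5.43 ± 0.475 in EAS, -5.71 ± 0.349 in AS and -5.96 ± 0.607 in SAL. End was thus above every library of every other tissue, and Emb was above every library of the remaining 4. The difference of End from EAS was 3.61 on the log2 scale and that of Emb from AS was 2.31. Both had an exact 2-sided permutation p = 0.0286, which is the lowest that this design allows, and an adjusted p of 0.0408 over the 30 tests of both ratios. The same p held for all 9 pairs involving End or Emb. The 6 pairs among AS, EAS, SAL and Per did not pass (exact permutation adjusted p from 0.107 to 0.502). With 4 libraries on each side, this p is reached only where the libraries do not overlap. In CPM, 71.1% of the comparisons of all features did not overlap either. Beside that share, the tests passed 9 of 15 pairs for this ratio and 12 of 15 for crtRB1 to lcyE. These tests compare the tissues without the replicate pairing. With the replicate block 0 pairs passed for either ratio (exact paired permutation, smallest adjusted p 0.144), since 4 pairs are too few to reach the threshold. Without any single library 0 pairs passed either (exact permutation, smallest adjusted p 0.0536 to 0.0779).

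The log2 ratio of crtRB1 to lcyE reads was 3.08 ± 0.316 in Per (SD, n = 4), 0.94 ± 0.192 in AS and 0.26 ± 0.368 in Emb. It was -2.16 ± 1.15 in SAL, -3.34 ± 1.11 in EAS and -3.66 ± 0.80 in End. Reads of crtRB1 therefore outnumbered those of lcyE in every Per and AS library and were outnumbered in every SAL, EAS and End library. Emb replicate 3 alone among the Emb libraries fell below a log2 ratio of 0, at -0.24. Reads are not corrected for transcript length, so a ratio above or below 0 does not rank the genes, and only differences between tissues are compared. All 12 pairs that set Per, AS or Emb against another tissue passed with an exact permutation p = 0.0286, adjusted 0.0408, and the 3 pairs among SAL, EAS and End did not (exact permutation adjusted p from 0.107 to 0.657). The widest difference was that of End from Per, at -6.74 on the log2 scale. Emb and AS, which passed here with a difference of -0.68, were not separated when limma was run on the ratios over all 24 libraries (limma adjusted p = 0.221). In turn, limma passed SAL against EAS (limma adjusted p = 0.0388) and against End (limma adjusted p = 0.0104) for this ratio, and SAL against Per for psy1 to pds1 (limma adjusted p = 0.0131).

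**Figure D4:**
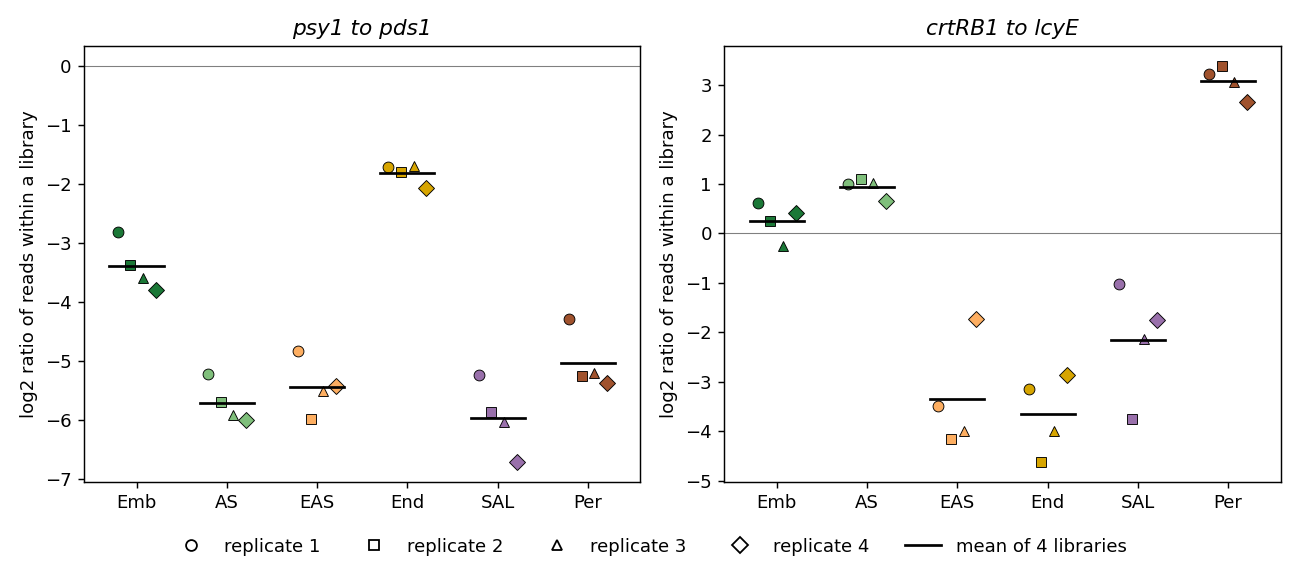
log2 ratio of reads within each library, psy1 to pds1 on the left and crtRB1 to lcyE on the right, by tissue; symbols mark the replicate number and bars the mean of 4 libraries. The End libraries lie between -2.08 and -1.69 for psy1 to pds1, above all others, and the Per libraries between 2.65 and 3.39 for crtRB1 to lcyE, above all others.

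Replicates with the same number mostly shared a harvest day, so the replicate number was tested beside tissue. Of the 4 genes, 0 passed after adjustment over all features in edgeR's quasi-likelihood test, where 1.57% of features did, and 1 had an unadjusted p under 0.05. That gene was psy1, whose levels in replicates 2, 3 and 4 were lower than in replicate 1 by log2 fold changes of -0.56, -0.39 and -0.62 (edgeR adjusted p = 0.0861). DESeq2 called it, with an adjusted p = 0.0127. It was also called by edgeR without EAS replicate 2 (edgeR adjusted p = 0.0491). The adjusted p was 0.278 for crtRB1, 0.37 for pds1 and 0.504 for lcyE in the edgeR fit.

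For each gene, the features most alike in log2 CPM over the 24 libraries were listed as a description, among 21650 other features with a mean of at least 1 CPM. Nearest to psy1 were Zm00001d016397 (Pearson's r 0.953) and Zm00001d009613 (r 0.931), and 15 features reached an r of 0.9. Both had their highest tissue mean in End, at 25.3 and 11.4 CPM. Zm00001d016397 had its lowest mean in AS, at 11.6 CPM. For pds1, Zm00001d033969 (r 0.963) and Zm00001d002386 (r 0.96) came first, of 223 features at 0.9 or more. For lcyE only 4 features reached 0.9, led by Zm00001d005497 (r 0.911) and Zm00001d036340 (r 0.909). For crtRB1 426 features did, led by Zm00001d012158 (r 0.974) and Zm00001d028311 (r 0.971), which held 33.5 and 5.22 CPM in Per and 4.36 and 0 CPM in End.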

How the data were processed

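The authors deposited raw, unnormalised read counts for each gene, in 1 file for each library. Per the submitters' processing notes, TopHat2 and Bowtie2 were used with the build B73 RefGen_v4, and the summary rows are those of htseq-count; versions and annotation release: not given in the sources used here. Per the labels' protocols, RNA was selected for poly(A), sequenced from both ends and without strand, so genes overlapping on opposite strands cannot be told apart. Reads not uniquely placed (7.81% to 16.2%), outside genes (4.24% to 6.41%) or ambiguous (1.07% to 2.63%) stayed out of genes and library sizes, which can lower members of gene families; the effect on these genes was not tested.

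With edgeR 4.0.16 in R 4.3.3, features were filtered with filterByExpr (minimum count 10) and TMM-scaled, and 1 quasi-likelihood fit by tissue covered all 24 libraries, with Benjamini-Hochberg adjustment in each of 15 tissue pairs. Read ratios had 0.5 reads added and exact permutation tests. The edgeR steps were tested on simulated counts, for End against Emb alone, and the ratio tests were not. DESeq2 1.42.0 and limma 3.58.1 were alternatives.

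The genes, ratios and lists were chosen with earlier results of these data known. Named were the 4 genes and, for each, the 2 features most correlated with it. Of 41614 gene identifiers, 0 matched the RefSeq table of Zm-B73-REFERENCE-NAM-5.0, so tissue markers, other pathway genes, promoters and sequences were not analysed here.

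Per the labels, same-numbered libraries share a harvest day (27 April, 1 May, 4 May and 18 May for numbers 1 to 4), but the dates of EAS replicate 3 and Emb replicate 1 read otherwise and SAL replicate 4 has none. The numbers therefore pair the libraries. Deviations from tissue means correlated across features with a median r of 0.0765 between same-numbered libraries and -0.0289 between others. Within each tissue, no library repeated another (chi-square per degree of freedom at least 7.32), and libraries of different tissues were not compared in this way. Replicates are called biological in the design text; whether they are separate plants is not stated, so the p-values may measure technical spread only.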

Additional observations from a re-analysis of the deposited data

Results flagged for a closer look

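Of 36 sets of 4 libraries (the CPM of each gene and both read ratios in each tissue), 2 held a library far from the other 3 by Dixon's criterion, which chance gives in about 1 set in 20. In EAS, replicate 4 had 0.383 CPM of crtRB1, from 16 reads, against at most 0.0954 CPM in the other EAS libraries. In Per, replicate 1 had a log2 ratio of psy1 to pds1 reads of -4.29, while the other 3 libraries lay between -5.37 and -5.20; the same library had the highest psy1 (3.12 CPM) and the lowest pds1 (61.3 CPM) of the Per libraries.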

How the results depend on the processing

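All 11 psy1 calls held under each alternative run, replicate block and single libraries left out included; only the stricter 8-fold rule lowered its count, to 5. At 8-fold the counts were 8 for crtRB1, 0 for pds1 and 0 for lcyE, and at any fold 12 for pds1. With the replicate block the counts were 11 for psy1, 7 for pds1, 8 for lcyE and 13 for crtRB1, and no other call changed than that of lcyE in Emb against Per. Of 1979 refitted fold changes, 1912 kept their direction and call, 19 lost the call and 18 gained it (these all in pds1, lcyE or crtRB1), and 30 turned sign, in 9 comparisons that were called in neither fit; crtRB1 in EAS against End could not be fitted from those tissues alone. Library totals without scaling shifted the median log2 fold change of all features by up to 0.678 (End against SAL). The replicate number effect was called for 1 gene, psy1, with DESeq2, and for 0 to 1 genes when single libraries were left out. For both read ratios the exact paired permutation test with the replicate block gave 0 and 0 passing pairs, and leaving out any library gave 0 to 0: pairs of the reduced tissue cannot go below an exact p of 0.0571, and the others, still at 0.0286, had an adjusted p of at least 0.0536 with fewer tests passing; limma on the ratios gave 10 and 13 passing pairs. Low read numbers limit crtRB1 in EAS and End. The sign turned with library totals alone for psy1 in Emb against EAS (0.28) and AS against SAL (-0.19), pds1 in EAS against Per (-0.12) and End against Per (-0.57), and lcyE in Emb against End (0.37) and End against SAL (-0.65). With upper quartile scaling it turned for psy1 in AS against SAL (-0.10) and lcyE in End against SAL (-0.0025). With at least 1 CPM in 12 libraries it turned for psy1 in AS against SAL (-0.042), lcyE in End against SAL (-0.015) and pds1 in End against Per (-0.0036). Without the 4 libraries with other labels it turned for lcyE in End against SAL (-0.0067). With single libraries left out, the log2 fold change of psy1 ran from -0.305 to 0.171 in Emb against EAS, -0.186 to 0.024 in Emb against Per, -0.230 to 0.460 in AS against SAL and -0.291 to 0.185 in EAS against Per. That of lcyE ran from -0.145 to 0.111 in EAS against Per and -0.052 to 0.119 in End against SAL, and that of pds1 from -0.059 to 0.098 in End against Per.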

Other observations

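After the values had been seen, the order of replicates was looked at within tissues. For psy1, replicate 1 (harvested on 27 April, where the label follows the others) was the highest library in 6 of 6 tissues, and replicate 4 (18 May) was the lowest in 5 of 6. The ratio of psy1 to pds1 reads was highest in replicate 1 in 5 of 6 tissues and lowest in replicate 4 in 5 of 6. For the other genes, no replicate was the highest or the lowest library in more than 4 of 6 tissues. That count was reached by replicate 3 as the highest for pds1, and by replicate 2 as the lowest for lcyE and for crtRB1. These orders were not tested beyond the replicate number effect given above, and harvest day cannot be told apart from anything else that same-numbered libraries shared.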
